A study of Mus musculus with 19 samples.

Results

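Regulators of G protein signalling (RGS) were followed through sorted epithelial cells of the mouse nose: Rgs1, Rgs2, Rgs3, Rgs4, Rgs10, Rgs13, Rgs16, Rgs19, Rgs20 and Rgs21. These 10 genes were taken by symbol from the 26221 rows of the authors' normalized table, all 10 were found, and each held the same reads in the count table of 27179 rows. The mice, called naive in the name of the authors' tables, carried the ChAT-eGFP transgene, a bacterial artificial chromosome on a B6 background that places enhanced green fluorescent protein (eGFP) under regulatory sequence of Chat. That gene encodes the enzyme that makes acetylcholine. All 3 groups came from transgenic nasal tissue digested with dispase and then papain, with dead cells gated out by propidium iodide. The FSClow group (9 libraries) held CD45-, EpCAM+, eGFP+ cells of low forward and side scatter. The FSChi group (5 libraries) held eGFP+ cells of the same surface markers but of high scatter. The EpCAM group (5 libraries) held CD45-, EpCAM+, eGFP- cells. No label gives the age or sex of the mice. Nor is any library tied to an animal, which means that each p-value here reflects library-to-library spread and that this spread may be technical. A transgene of this kind marks the cells that switch it on, and the eGFP- gate is a mixture of cell types. In bulk libraries, fewer cells of a type and less RNA per cell cannot be told apart.

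RGS proteins switch G protein signals off. A ligand bound to its receptor makes a G alpha subunit exchange GDP for GTP; the RGS domain binds that active subunit and speeds the hydrolysis of its GTP, so that the subunit and its beta gamma partner come together again and the effectors fall silent. Chemosensory epithelial cells, called tuft, brush or solitary chemosensory cells in different organs, use receptors coupled to G proteins, phospholipase C and the channel Trpm5, and the neurons beside them in the nose signal odours through another G alpha subunit, so the set of RGS genes in a cell bears on how long each signal lasts.

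The libraries held 2151281 to 5439263 counts in FSClow, 1348428 to 7477695 in FSChi and 4137303 to 6487644 in EpCAM. Levels are given as CPM, read counts put on a common library total with edgeR's TMM factors. The 10 tuft cell markers checked, Trpm5, Pou2f3 and Chat among them, summed to 8132 to 12726 CPM in FSClow, 7863 to 13466 in FSChi and 11 to 27.9 in EpCAM, which bears on the eGFP gate alone; no marker checked here bears on the scatter gates. The FSChi libraries also carried transcripts of the 9 olfactory neuron markers, which summed to 225 to 3770 CPM there, 68.1 to 272 in FSClow and 3548 to 6015 in EpCAM. Other epithelial lists were also higher in some FSChi libraries. The 5 basal cell markers summed to 113 to 1782 CPM in FSChi and 96.9 to 234 in FSClow, with 4 of the 5 called higher and 1 lower. Sustentacular markers summed to 295 to 1403 CPM against 139 to 393 (2 of 5 called higher), and ciliated markers to 79.0 to 321 against 31.8 to 69.4 (1 of 5 called higher). Ptprc, which encodes CD45, was at 4.78 to 32.4 CPM in FSClow, 2.61 to 18.0 in FSChi and 0 in all 5 EpCAM libraries. These are RNA levels, whereas the CD45- label is a gate on surface protein, and whether that gate held was not tested. In 5 libraries (FSChi 3, 4 and 5, EpCAM 1 and 2) the column of the count table was not closest to the single-library file of the same name, but in all 19 the closest file was of the same group. The replicate numbers of FSChi and EpCAM below are those of the count table. No batch or date is given in the labels.

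Of the 10 genes, 4 lie in one stretch of chromosome 1 (Rgs2, Rgs13, Rgs1 and Rgs21, in that order from 143999338 to 144567667, a span of 568.3 kb on GRCm38.p6), and no protein-coding gene lies in the gaps between them in the RefSeq table. Windows of 300 bases, from 250 before to 50 after the annotated start, were available from RefSeq for 8 of the 10 genes. The 3 printed here belong to the genes of that stretch with the highest levels, and capitals mark each CG dinucleotide. Each is on the minus strand of GRCm38.p6 and reads 5′ to 3′ along the gene. The windows lie at chr1:144177323-144177622 (Rgs13), chr1:144567618-144567917 (Rgs21) and chr1:144004100-144004399 (Rgs2).
Rgs13: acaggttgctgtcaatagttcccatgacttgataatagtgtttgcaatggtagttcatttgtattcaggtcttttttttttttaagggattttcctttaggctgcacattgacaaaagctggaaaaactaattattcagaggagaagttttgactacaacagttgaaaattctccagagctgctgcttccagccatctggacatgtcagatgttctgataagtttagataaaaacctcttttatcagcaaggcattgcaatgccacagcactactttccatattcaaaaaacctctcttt
Rgs21: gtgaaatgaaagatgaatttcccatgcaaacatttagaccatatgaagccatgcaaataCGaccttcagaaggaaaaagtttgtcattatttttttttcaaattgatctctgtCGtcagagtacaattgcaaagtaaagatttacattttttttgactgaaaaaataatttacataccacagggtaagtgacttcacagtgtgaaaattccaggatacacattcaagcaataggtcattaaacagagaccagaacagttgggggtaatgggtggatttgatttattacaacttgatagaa
Rgs2: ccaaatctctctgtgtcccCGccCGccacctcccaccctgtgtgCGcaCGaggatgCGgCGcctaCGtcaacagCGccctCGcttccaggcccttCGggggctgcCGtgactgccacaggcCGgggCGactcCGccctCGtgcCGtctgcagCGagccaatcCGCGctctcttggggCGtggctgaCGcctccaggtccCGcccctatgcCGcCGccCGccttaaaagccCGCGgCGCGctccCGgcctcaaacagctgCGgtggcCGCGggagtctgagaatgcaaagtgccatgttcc
The window of Rgs13 holds 0 CG dinucleotides and that of Rgs21 holds 2, whereas that of Rgs2 holds 33, against a median of 7 over all 32851 windows of the table. No CG at all was found in 5.43% of windows, and 91.4% of windows held fewer than Rgs2. The share of G and C bases was 36.7%, 33.3% and 70.0% in the same order. One window, that of Rgs21, holds the octamer ATGCAAAT, the sequence recognised by POU-domain factors such as Pou2f3, on the strand of the gene with its first base 200 bases before the start. Read on both strands, this octamer is present in 1.74% of all windows and, among the other members with a window, only in that of Rgs4, on the opposite strand. The letters TATAAA, found in 13.6% of windows, and TGACGTCA, the palindromic cyclic AMP response element found in 1.79%, are absent from all 3 printed windows. A match describes letters and does not show that a factor binds.

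**Figure D1:**
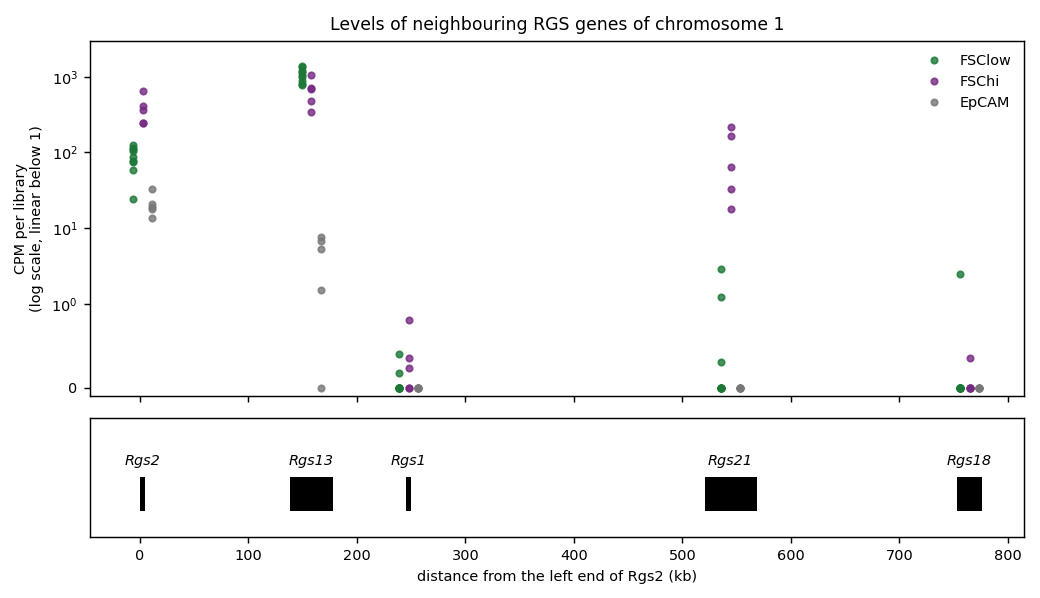
Upper panel: CPM of each library (log scale above 1, linear below) for the RGS genes of the chromosome 1 stretch and their neighbour Rgs18; lower panel: the extent of each gene in kb from the left end of Rgs2. Rgs13 is high in both eGFP+ groups, Rgs21 lies between 18.1 and 220 CPM in FSChi, and Rgs1 and Rgs18 are near 0 throughout.

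Neighbouring genes of this stretch had different patterns. Rgs13 was high in both eGFP+ gates and scarce in EpCAM. Rgs2 was present in every library and highest in FSChi, Rgs21 was abundant in FSChi alone, and Rgs1 never passed 0.803 CPM. The gap between Rgs2 and Rgs13 is 133.2 kb, that between Rgs13 and Rgs1 67.3 kb and that between Rgs1 and Rgs21 270.6 kb. Rgs18, the next RGS gene at 185.0 kb beyond Rgs21, had 7 counts in FSClow, all in 1 library, 1 in FSChi and 0 in EpCAM.

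Of the 10 genes, 7 passed the filter on low counts and were tested among 13340 genes with edgeR's quasi-likelihood test; Rgs1, Rgs4 and Rgs10 did not pass. Rgs21 passed through FSChi alone, with 1413 counts there, 12 in FSClow and 0 in EpCAM. Its place in the counts and medians below is therefore not independent of its high level in FSChi. A gene is called when its Benjamini-Hochberg adjusted p is under 0.05. Between FSClow and EpCAM, 4 of the 7 were called higher (Rgs2, Rgs13, Rgs16, Rgs19) and 2 lower (Rgs3, Rgs20); over all genes tested 45.1% were called, 22% higher and 23.1% lower. Between FSChi and EpCAM, 5 were called higher (Rgs2, Rgs13, Rgs16, Rgs19, Rgs21) and 0 lower, beside 25.6% of all genes, 13.5% higher and 12.2% lower. At an unadjusted edgeR p under 0.05, 2 were lower in that comparison (Rgs3 and Rgs20), and DESeq2 called these 2 lower. Between FSChi and FSClow, 3 were called higher in FSChi (Rgs2, Rgs3, Rgs21) and 0 lower, beside 24.8% of all genes, 15.5% higher and 9.3% lower. At an unadjusted edgeR p under 0.05 the count of lower members there was also 0, and DESeq2 called 0 lower. The median log2 fold change over the 7 genes was 2.05, 1.5 and 0.12 in the 3 comparisons, beside 0.05, -0.02 and -0.01 over all genes, and with Rgs21 set at its lower bound the first becomes 1.98 and the second stays at 1.5. Both comparisons with EpCAM share their 5 EpCAM libraries. Scaling with RLE factors in place of TMM moved the median of all genes to -0.14 in both, and the share of higher calls between FSClow and EpCAM from 48.7% to 38.2%. None of the calls of the members or of the partner lists below changed direction under RLE scaling, upper-quartile scaling or DESeq2.

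**Figure D2:**
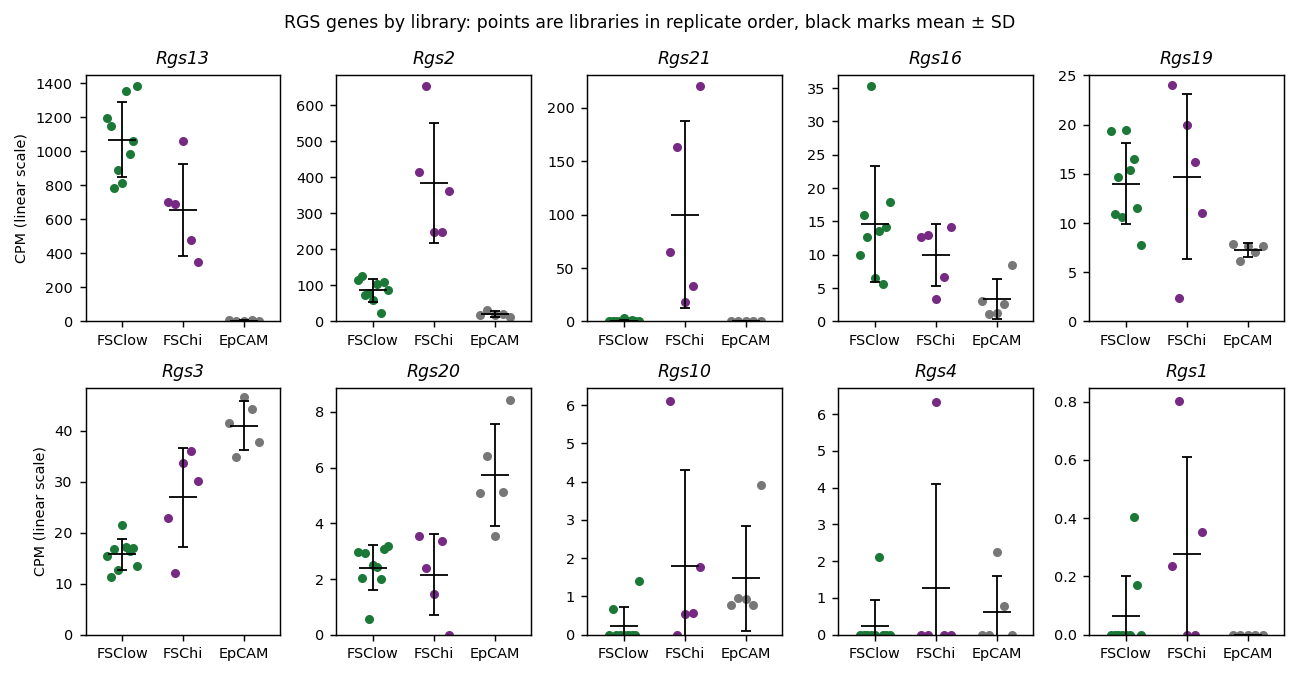
CPM on a linear scale for each of the 10 genes; points are the 9 FSClow, 5 FSChi and 5 EpCAM libraries in replicate order, and black marks show the mean and SD. Rgs13 separates both eGFP+ groups from EpCAM, Rgs2 and Rgs21 are highest in FSChi, and Rgs3 and Rgs20 are highest in EpCAM.

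By its mean length-corrected level Rgs13 was the most abundant of the 10 genes in both eGFP+ gates, although in FSChi its range overlapped with that of Rgs2. It is a small RGS protein, little more than its RGS domain, that is known mainly from germinal centre B cells and mast cells, where it dampens chemokine receptor and IgE receptor signalling. In FSClow it ranged from 783 CPM through a median of 1061 to 1381 over the 9 libraries. In FSChi it was at 703, 691, 1057, 478 and 347 CPM in replicates 1 to 5, and in EpCAM at 6.68, 0, 5.24, 7.63 and 1.51. Every eGFP+ library lay far above every EpCAM library, and the ranges of FSClow and FSChi overlapped. The means were 1067 ± 219 (SD, n = 9), 655 ± 270 (SD, n = 5) and 4.21 ± 3.31 (SD, n = 5). The log2 fold change against EpCAM was 7.96 ± 0.61 (SE; edgeR adjusted p = 4.3e-10) in FSClow and 7.26 ± 0.60 (SE; edgeR adjusted p = 3.8e-09) in FSChi. The difference between FSChi and FSClow, -0.70 ± 0.41 (SE), missed the threshold (edgeR adjusted p = 0.22). Leaving out each library in turn kept the value for FSClow between 7.66 and 8.20 and that for FSChi between 6.95 and 7.53.

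Markers of the blood cells in which Rgs13 is best known were looked at beside it. Of the 16 leukocyte markers, 5 were at 0 in every FSClow library, among them Ms4a1 of B cells and Ms4a2 of mast cells. The other 11 had counts there, among them Cd79a and Cd79b of B cells and Cpa3 of mast cells. In FSChi 6 were at 0, among them Cpa3 and Ms4a2, and 10 had counts, among them Ms4a1, Cd79a and Cd79b. In EpCAM 6 were at 0, among them Ptprc, Cpa3 and Ms4a2, and 10 had counts, again with Ms4a1, Cd79a and Cd79b. The list summed to 43.0 to 126 CPM in FSClow, 37.9 to 632 in FSChi and 438 to 3356 in EpCAM. Its genes went both ways: of the 5 that passed the filter, 2 were higher and 2 lower in FSClow than in EpCAM, and 2 were higher and 0 lower in FSChi than in EpCAM. The part of these cells in the level of Rgs13 was not tested. Per length, in TPM, the length-corrected level of the single-library files, Rgs13 averaged 1206 ± 245 (SD, n = 9) in FSClow and ranked 73 among 47729 genes. It averaged 726 ± 294 (SD, n = 4, without 1 nearly empty file) and ranked 153 in FSChi. The tested genes whose pattern over the 19 libraries was closest to that of Rgs13, by the root mean square difference of log2 CPM centred on each gene's mean, were Inpp5d (0.73), a phosphatase acting on membrane inositol lipids, and Spib (0.83), an ETS-family transcription factor. Inpp5d was at 195 ± 36.2 CPM in FSClow, 90.1 ± 35 in FSChi and 0.388 ± 0.661 in EpCAM (SD).

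Rgs2 rose in both eGFP+ gates and was 4.46 times higher in FSChi than in FSClow. The protein prefers the Gq class of alpha subunits, the class that drives phospholipase C, and its gene is known to be induced quickly by stimuli in many cells. It was at 415, 653, 248, 247 and 362 CPM in FSChi replicates 1 to 5. In FSClow it ran from 24.2 through a median of 87.3 to 125 CPM, and in EpCAM it was at 18.8, 33.0, 18.0, 20.7 and 13.6. All FSChi libraries exceeded all others, whereas FSClow and EpCAM overlapped through FSClow 7, the lowest of its group. Against EpCAM the log2 fold change was 2.05 ± 0.33 (SE; edgeR adjusted p = 1.3e-05) in FSClow and 4.21 ± 0.38 (SE; edgeR adjusted p = 9.2e-09) in FSChi. Between FSChi and FSClow it was 2.16 ± 0.29 (SE; edgeR adjusted p = 5.5e-06).

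Early response genes, a list of 10 with Fos, Egr1 and Atf3, differed widely among the FSClow libraries. They summed to 2482 CPM in FSClow 7, where Rgs2 was lowest, and to 33829 and 30471 CPM in FSClow 1 and 2, where Rgs2 was at 114 and 125 CPM. FSClow 3, 4, 5, 6, 8 and 9 had sums of 12628, 17061, 7852, 13631, 9349 and 23930 CPM. Rgs2 was at 74.3, 78.0, 59.2, 105, 110 and 87.3 CPM in these, so it did not follow the list in order. In FSChi, where Rgs2 was highest, the same list summed to 5673 to 10213 CPM, within the range of FSClow. In EpCAM it summed to 6777 to 10700. Without FSClow 7, the log2 fold change of Rgs2 was 2.09 for FSClow against EpCAM and 2.06 for FSChi against FSClow. The part of this list in the level of Rgs2 was not tested. Closest to Rgs2 in pattern were Tspan6, a tetraspanin, and Calml4, a calmodulin-like protein, each at a root mean square difference of 0.65.

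The balance of Rgs13 to Rgs2 differed between the gates within single libraries, where library scaling plays no part. The ratio of their counts was 9.22 to 40.7 in FSClow, 0.96 to 4.27 in FSChi and 0 to 0.368 in EpCAM, with no overlap between the groups. FSClow 7 gave the highest ratio, and the other 8 FSClow libraries stayed between 9.22 and 15.8.

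Rgs21 was found almost only in FSChi. In rodents this gene, which encodes a very small RGS protein, has been described in taste bud cells beside the bitter receptors and gustducin. It was at 64.9, 163, 18.1, 33.2 and 220 CPM in FSChi replicates 1 to 5, a spread wider than that of Rgs13 or Rgs2 in the same libraries. In FSClow 6 of 9 libraries held no count, and FSClow 5, 6 and 7 held 2.87, 0.302 and 1.21 CPM, 12 counts in all. In EpCAM all 5 libraries were at 0. No FSChi library overlapped with any other library. The log2 fold change between FSChi and FSClow was 7.71 ± 0.80 (SE; edgeR adjusted p = 2.6e-06), or 9.06 without FSClow 5. FSChi was at least 618-fold higher than EpCAM, taking the floor of 3 counts over the EpCAM group (edgeR adjusted p = 4.8e-06); without FSChi 5 the bound is 400-fold and without FSChi 3 it is 863-fold. FSClow was at least 3.95-fold higher than EpCAM on the same floor, which missed the threshold (edgeR adjusted p = 0.11); 8 of the 12 counts were in FSClow 5, and without it the bound is 1.46-fold. Because the fitted fold change against a group at 0 depends on a prior count, no fitted value is given for it.

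Within FSChi, Rgs21 and Rgs13 did not keep one ratio. The count ratio of Rgs13 to Rgs21 was 10.8, 4.24, 58.2, 14.4 and 1.58 in replicates 1 to 5, lowest in replicate 5 and highest in replicate 3. Counts are not corrected for gene length, so the ratio is read only between libraries. Olfactory neuron markers in these libraries summed to 3770, 225, 1497, 3318 and 1796 CPM in the same order. FSChi 2, with the second highest Rgs21 of 163 CPM, had a sum of 225 CPM that lies within the FSClow range of 68.1 to 272. EpCAM, with sums of 3548 to 6015 CPM, had no Rgs21 count. The part of olfactory neurons in the level of Rgs21 was not tested. The genes closest to Rgs21 in pattern lay further from it than those of any other member tested: Tnc, which encodes the matrix protein tenascin C, at a root mean square difference of 1.41, and Cdh13, a cadherin, at 1.61. Tnc was at 283 ± 260 CPM in FSChi, 9.22 ± 7.11 in FSClow and 9.10 ± 5.24 in EpCAM (SD).

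**Figure D3:**
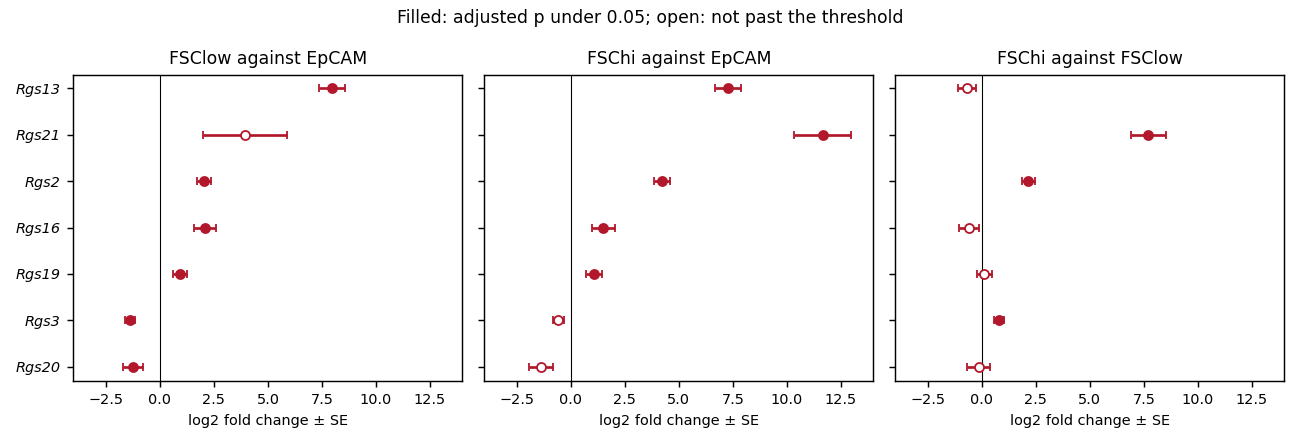
Log2 fold change ± SE from edgeR for the 7 genes tested, in the 3 comparisons; filled points have an adjusted p under 0.05. Rgs13 lies far above 0 in both comparisons with EpCAM and at -0.70 between the eGFP+ gates, whereas Rgs21 and Rgs2 stay above 0 there; the fitted Rgs21 values against EpCAM rest on a group at 0 and are not bounds.

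Rgs16, which acts on the Gi and Gq classes and is known as an inducible gene, was low in all groups. It ran from 5.64 through a median of 13.6 to 35.3 CPM in FSClow, the top value being FSClow 4. It was at 12.7, 12.9, 3.36, 6.72 and 14.2 CPM in FSChi and at 3.14, 1.19, 1.31, 2.65 and 8.44 in EpCAM. The groups overlapped in every comparison, EpCAM 5 being above several eGFP+ libraries. In FSClow it rose against EpCAM by a log2 value of 2.10 ± 0.50 (SE; edgeR adjusted p = 0.0013). That value was 1.74 without FSClow 4 and 2.80 without EpCAM 5, and it passed the test in both cases. In FSChi the value was 1.5 ± 0.54 (SE; edgeR adjusted p = 0.044), at the edge of the threshold. This call was lost without any one of FSClow 2, 6 or 8, FSChi 1, 2 or 5, or EpCAM 1, 2, 3 or 4 (edgeR adjusted p from 0.050 to 0.121, log2 values from 1.26 to 1.51), and the value rose to 2.20 without EpCAM 5. It was also lost in 12 of 16 other settings. Between FSChi and FSClow the difference of -0.60 ± 0.47 (SE) did not pass (edgeR adjusted p = 0.39). Faap24 (0.70), of the Fanconi anaemia DNA repair complex, and Traf3ip2 (0.72), the adaptor of the interleukin 17 receptor, were closest to Rgs16 in pattern, by root mean square difference.

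Rgs3 went the other way and was highest in EpCAM. The gene makes several isoforms, which act on Gi and Gq subunits. EpCAM libraries held 41.4, 34.9, 46.6, 44.3 and 37.7 CPM, and FSClow ran from 11.3 through a median of 16.5 to 21.5, with no overlap. FSChi was between them, at 22.8, 12.1, 33.6, 36.0 and 30.1 CPM, and overlapped with both. In FSClow the log2 level of Rgs3 fell by 1.38 (SE 0.22; edgeR adjusted p = 1e-05). The difference of -0.58 ± 0.25 (SE) between FSChi and EpCAM did not pass (edgeR adjusted p = 0.087), although it did without FSChi 4 (-0.77; edgeR adjusted p = 0.0377). FSChi was higher than FSClow by 0.80 ± 0.22 (SE; edgeR adjusted p = 0.0095).

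Rgs3 did not follow the olfactory neuron list in order across the FSChi libraries. FSChi 2, with the lowest sum of those markers in its group (225 CPM), also had the lowest Rgs3 (12.1 CPM), inside the FSClow range. The other 4 FSChi libraries, with sums of 1497 to 3770 CPM, had 22.8 to 36.0 CPM. Among these 4, FSChi 1 had the highest sum (3770 CPM) and the lowest Rgs3 (22.8 CPM), and FSChi 3 had the lowest sum (1497 CPM) with Rgs3 at 33.6 CPM. All 9 markers of that list, one of which (Gng13) taste and tuft cells also use, were higher in FSChi than in FSClow. Their part in the level of Rgs3 was not tested. In the fit restricted to libraries closest to their own file, which keeps only FSChi 1 and 2, the difference was 0.23 and did not pass (edgeR adjusted p = 0.701). Pon2 (0.29), a paraoxonase, and Sae1 (0.32), a subunit of the SUMO activating enzyme, were closest to Rgs3 in pattern. The long noncoding RNA Gm52741 overlaps Rgs3, and it is unknown whether the counting kept their reads apart.

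Rgs19 and Rgs20 belong to one subfamily, which carries a cysteine-rich string near its start; Rgs19, also called GAIP, acts on Gi subunits and Rgs20 acts on Gz. Rgs19 ran from 7.74 through a median of 14.7 to 19.4 CPM in FSClow. It was at 24.0, 2.41, 20.0, 16.2 and 11 CPM in FSChi and at 7.85, 6.18, 7.67, 7.01 and 7.68 in EpCAM. EpCAM was tight, with an SD of 0.695 CPM, and FSChi was wide, from below all EpCAM libraries to above all FSClow libraries. The log2 fold change against EpCAM was 0.93 ± 0.34 (SE; edgeR adjusted p = 0.029) in FSClow and 1.06 ± 0.38 (SE; edgeR adjusted p = 0.041) in FSChi. Neither call was firm. The first was lost without any one of FSClow 5 or 7, FSChi 3 or 4, or EpCAM 1, 2, 3 or 4 (edgeR adjusted p from 0.0528 to 0.0930, log2 values from 0.75 to 0.88). The second was lost without any one of FSClow 2, 4 or 7, FSChi 1, 3, 4 or 5, or any EpCAM library (edgeR adjusted p from 0.0505 to 0.165, lowest log2 value 0.77). FSChi and FSClow differed by 0.12 ± 0.33 (SE; edgeR adjusted p = 0.83), a difference whose sign turned to -0.08 without FSChi 1. Plekhm1 (0.37), an adaptor of lysosome fusion, and Stk11 (0.40), a kinase upstream of AMPK, were closest to Rgs19 in pattern.

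Rgs20 was low throughout and highest in EpCAM, at 5.10, 6.42, 3.56, 5.14 and 8.44 CPM. FSClow ran from 0.573 through a median of 2.51 to 3.17 CPM, and FSChi was at 3.53, 2.41, 1.48, 3.36 and 0. Both eGFP+ groups lay below all EpCAM libraries, the closest being FSChi 1 at 3.53 and EpCAM 3 at 3.56. Against EpCAM it fell by 1.24 on the log2 scale in FSClow (SE 0.48; edgeR adjusted p = 0.039). The call was lost without FSClow 6 (-1.24; edgeR adjusted p = 0.0520), EpCAM 2 (-1.20; 0.0775) or EpCAM 5 (-1.06; 0.118). In FSChi the value of -1.38 ± 0.57 (SE) did not pass (edgeR adjusted p = 0.078), and between FSChi and FSClow it was -0.14 ± 0.53 (SE; edgeR adjusted p = 0.88), a value that turned to 0.03 without FSChi 3 and 0.20 without FSChi 5. Sh3pxd2a and Dpysl3, each at a root mean square difference of 0.53, were closest to Rgs20; the first encodes a scaffold of invadopodia and the second a protein of growing axons. Gm16041 and Gm17101 overlap Rgs20, with the same limit.

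The 3 genes that did not pass the filter held few counts. Rgs10, known for limiting activation of microglia, had 6 counts in FSClow (FSClow 2 and 9), 38 in FSChi (26 of them in FSChi 1) and 44 in EpCAM (26 of them in EpCAM 5), and EpCAM was the one group with a count in all libraries, at 0.779 to 3.92 CPM. In the fit without a filter Rgs10 was lower in FSClow than in EpCAM, at a log2 value of -2.63 ± 0.98 (SE; edgeR adjusted p = 0.0376) and higher in FSChi than in FSClow by 2.92 ± 0.99 (SE; edgeR adjusted p = 0.0427). Rgs4, a regulator best known from neurons, had 7 counts in FSClow, all in FSClow 6, 47 in FSChi, all in FSChi 3, and 17 in EpCAM, in EpCAM 3 and 4. Rgs1, a regulator of chemokine responses in B and T cells, had 2 counts in FSClow, 3 in FSChi and 0 in EpCAM. At these depths no statement on Rgs1 or Rgs4 goes beyond those counts.

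**Figure D4:**
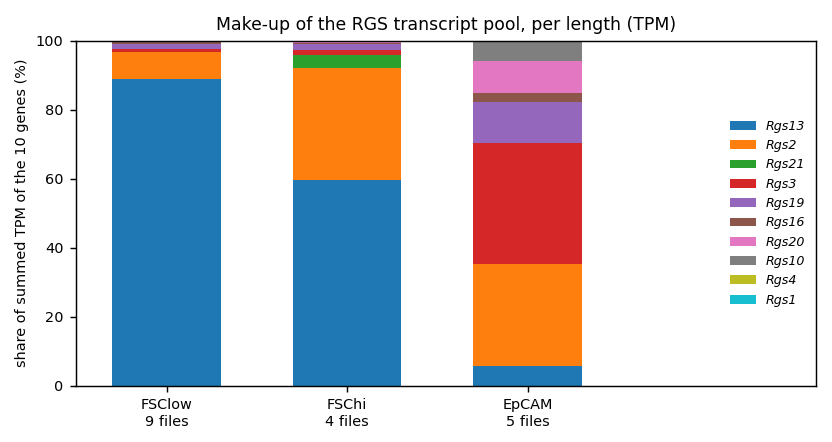
Share of the summed TPM of the 10 genes taken by each gene, as group means over 9 FSClow, 4 FSChi and 5 EpCAM single-library files; the nearly empty file named FSChi 3 is left out, and count column 5 of FSChi, highest in Rgs21, has no close match among the 4 files used. Rgs13 takes 88.8% in FSClow and 59.7% in FSChi, and Rgs3 with Rgs2 takes most of the pool in EpCAM.

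Levels of the 10 genes can be set beside each other only per length, in TPM. Their sum in FSClow was 1358 ± 252 TPM (SD, n = 9). FSChi had 1216 ± 334 (SD, n = 4), and EpCAM only 77.8 ± 1.19 (SD, n = 5). Rgs13 made up 88.8% of the sum in FSClow, followed by Rgs2 at 7.88%, and no other member passed 1.39%. In FSChi Rgs13 made up 59.7%, Rgs2 32.3% and Rgs21 3.90%, with mean levels of 726 ± 294, 392 ± 183 and 47.5 ± 47.2 TPM (SD, n = 4). The 4 files used do not stand for all 5 FSChi libraries of the count table. Columns 1 to 4 each correlated at 0.966 or more with 1 of them, whereas column 5, with the highest Rgs21 (220 CPM) and the lowest Rgs13 (347 CPM), reached only 0.930 with any file. In the 4 files Rgs13 was at 492 to 1151 TPM and Rgs21 at 16.9 to 118, so these FSChi shares leave out the library with the most Rgs21 beside Rgs13. The ranges of Rgs13 and Rgs2 overlapped in these files, and those of Rgs2 and Rgs21 did not. EpCAM had no dominant member: Rgs3 stood first at 27.2 ± 4.06 TPM, or 35% of the sum, and overlapped with Rgs2 at 22.9 ± 7.92 (SD, n = 5). Rgs19 (9.25), Rgs20 (7.23), Rgs13 (4.55) and Rgs10 (4.29 TPM) followed, each overlapping with the next.

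Of 16 other RGS-family genes and partners, 12 were tested. Rgs8 passed the filter through FSChi alone, and Rgs5 and Rgs7bp passed it only with EpCAM, the groups where they are high. Between FSClow and EpCAM 2 were called higher and 5 lower (median log2 fold change -0.59), between FSChi and EpCAM 5 higher and 5 lower (0.18), and between FSChi and FSClow 5 higher and 0 lower (0.64). These are 58.3%, 83.3% and 41.7% of the 12, beside 45.1%, 25.6% and 24.8% of all genes. The medians of all genes were 0.05, -0.02 and -0.01. Between FSChi and FSClow 1 was lower at an unadjusted edgeR p under 0.05, and DESeq2 called 0 lower. Rgs14, a scaffold with a second binding site for inactive Gi subunits, had the largest rise of the 12 in FSClow. It was at 39.0 ± 11 CPM in FSClow (SD, n = 9), at 43.1 ± 14.8 in FSChi (SD, n = 5) and at 2.16 CPM in EpCAM 1 with the other 4 EpCAM libraries at 0. Its rise on a log2 scale was 6.48 ± 0.63 (SE; edgeR adjusted p = 1.1e-08) in FSClow and 6.61 ± 0.65 (SE; edgeR adjusted p = 4.2e-08) in FSChi, and without EpCAM 1 no EpCAM count remains.

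A pair of other genes was, like Rgs21, raised in FSChi. Rgs8, known from Purkinje neurons, was at 4.70, 27.3, 4.43, 4.29 and 24.5 CPM in FSChi replicates 1 to 5, with 1 count in all of FSClow and 2 in all of EpCAM. The count ratio was 117 against EpCAM (95% counting interval 32.0 to 977) and 238 against FSClow (42.2 to 9450). Its high libraries, FSChi 2 and 5, were also the high libraries of Rgs21. Rgs22 was at 54.5, 194, 58.2, 84.9 and 156 CPM in FSChi, again highest in replicates 2 and 5, at 12.3 to 20.4 in FSClow and at 2.85 to 15.9 in EpCAM. It was higher in FSChi than in EpCAM by 3.41 ± 0.39 (SE; edgeR adjusted p = 4.2e-07) and than in FSClow by 2.62 ± 0.31 (SE; edgeR adjusted p = 1.4e-06). The tuft marker list summed to 13466 and 11392 CPM in FSChi 2 and 5 and to 7863 to 11214 in the other 3, and its part in these levels was not tested. FSChi 2 and 5 also had the lowest totals of the group, 1348428 and 2660208 counts, beside 4876029 to 7477695 in the other 3. The part of depth was not tested either.

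The RGS genes that work with a divergent G beta subunit split in FSClow. Rgs9, the regulator of phototransduction in the retina, exceeded its EpCAM level by a log2 value of 1.56 ± 0.30 (SE; edgeR adjusted p = 0.00014), and Rgs7 had a value of 0.75 ± 0.32 that did not pass (edgeR adjusted p = 0.063). Rgs11 and Rgs6 were lower, by -2.06 ± 0.30 and -1.73 ± 0.49 (SE; edgeR adjusted p = 3.6e-06 and 0.0056). Rgs7bp, their membrane anchor, had 1 count in FSClow against 186 in EpCAM, and was at 2.35, 0, 0.269, 2.61 and 0 CPM in FSChi. In FSChi the same 4 regulators had values against EpCAM of 1.14 ± 0.33 (Rgs9), 1.03 ± 0.36 (Rgs7), -1.05 ± 0.35 (Rgs11) and -1.65 ± 0.59 (Rgs6), log2 ± SE, with edgeR adjusted p of 0.012, 0.037, 0.028 and 0.041. All 4 were called there, but each call depended on single libraries. That of Rgs9 was lost without FSChi 5 (edgeR adjusted p = 0.0570), and that of Rgs11 without FSChi 1, FSChi 2 or EpCAM 2 (edgeR adjusted p up to 0.0635). That of Rgs6 was lost without FSChi 2, 3 or 5 or EpCAM 1, 2, 3 or 4 (up to 0.0840), and that of Rgs7 without FSClow 4, FSChi 1, 3, 4 or 5 or EpCAM 1, 3, 4 or 5 (up to 0.132).

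Rgs12, a large scaffold protein, was lower in both gates, by -2.16 ± 0.28 in FSClow and -1.88 ± 0.33 in FSChi (log2 ± SE; edgeR adjusted p = 6.4e-07 and 0.00016). Rgs5, widely used as a pericyte gene, was at 83.1, 156, 361, 261 and 21.8 CPM in EpCAM and at 27.0, 0, 73.2, 47.0 and 0 in FSChi, and held 8 counts in all of FSClow. It fell by 9.12 on the log2 scale in FSClow (SE 1.12; edgeR adjusted p = 2.2e-06), whereas its call in FSChi (-2.52 ± 0.90, edgeR adjusted p = 0.048) was lost in 16 of the 19 fits that leave out 1 library. The 8 endothelial and stromal markers summed to 3.46 to 13.5 CPM in EpCAM, and their part in the level of Rgs5 was not tested.

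**Figure D5:**
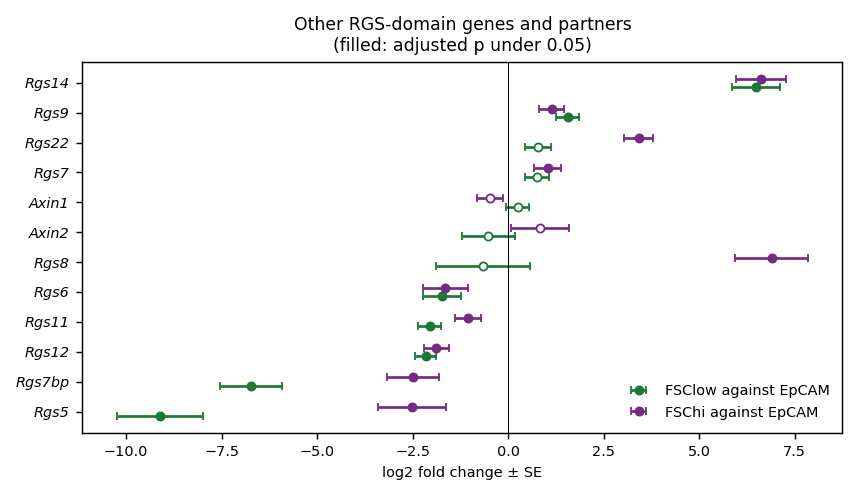
Log2 fold change ± SE against EpCAM of the 12 other RGS-family genes and partners tested, for FSClow and for FSChi; filled points have an adjusted p under 0.05. Rgs14 lies at 6.48 and 6.61, Rgs22 and Rgs8 stand apart in FSChi, and Rgs5 and Rgs7bp are lowest in FSClow.

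The partners on which RGS proteins act were called at shares to be read beside the 45.1%, 25.6% and 24.8% of all genes in the 3 comparisons. Of 16 G alpha genes 14 were tested; 4 were higher and 4 lower in FSClow than in EpCAM (median log2 fold change 0.18), 3 higher and 3 lower in FSChi than in EpCAM (0.00), and 6 higher and 1 lower in FSChi than in FSClow (0.38). These are 57.1%, 42.9% and 50% of the 14, the first near the share of all genes. Gnai2, a Gi subunit, was at 110 ± 21.5 CPM in FSClow and 106 ± 36.4 in FSChi against 22.0 ± 9.95 in EpCAM (SD), a rise of 2.32 ± 0.27 and 2.27 ± 0.29 (SE; edgeR adjusted p = 1.4e-07 and 1.8e-06). Gnat3, the gustducin subunit of taste cells and one of the tuft markers used above, was at 172 ± 54.9 CPM in FSClow and 2109 ± 1089 in FSChi. Gnal, the odour-coupled subunit of olfactory neurons, fell by 4.72 in FSClow and 1.63 in FSChi on the log2 scale (SE 0.40 and 0.45; edgeR adjusted p = 2.3e-09 and 0.0092).

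Among 17 beta and gamma genes, 13 were tested, with 4 higher and 5 lower in FSClow than in EpCAM, 4 higher and 1 lower in FSChi than in EpCAM, and 6 higher and 2 lower in FSChi than in FSClow (medians -0.12, 0.25 and 0.97). Gnb3, the beta subunit of taste and cone cells, was at 2178 ± 1194 CPM in FSChi, 4.43 ± 4.26 in FSClow and 5.06 ± 6.31 in EpCAM (SD), and so shared with Rgs21 a rise in FSChi over both other groups (8.91 ± 0.73 over FSClow, edgeR adjusted p = 5.2e-08). Of 14 phospholipase C beta and adenylyl cyclase genes, 10 were tested, with 4 higher and 3 lower, 2 higher and 1 lower, and 3 higher and 1 lower in the same 3 comparisons (medians 0.39, -0.18 and -0.05). Plcb2, the phospholipase of taste cells, was at 181 ± 39.1 CPM in FSClow, 234 ± 108 in FSChi and 0.726 ± 1.02 in EpCAM (SD), so that, as with Rgs13, the eGFP+ gates lay far above EpCAM. Adcy3, the cyclase of odour transduction, fell by 4.34 in FSClow (SE 0.39; edgeR adjusted p = 3.9e-09).

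Receptor kinases and arrestins, which end signals at the receptor instead of at the G protein, had 5 genes tested of 12 listed. Of these 4 were higher and 0 lower in FSClow than in EpCAM, 3 higher and 0 lower in FSChi than in EpCAM, and 0 were called between FSChi and FSClow (medians 1.25, 1.13 and 0.02). At an unadjusted edgeR p under 0.05, 0, 0 and 1 were lower and 0 were higher between FSChi and FSClow; DESeq2, which tested more of the list, called 1, 1 and 0 lower. Grk6, a receptor kinase, rose by 2.18 ± 0.28 in FSClow (SE; edgeR adjusted p = 6.1e-07) and 2.33 ± 0.30 in FSChi (SE; edgeR adjusted p = 2.4e-06). Some other calls of this list were less firm. That of Grk2 in FSClow was lost without FSClow 7 or EpCAM 1, 3 or 4 (edgeR adjusted p up to 0.094). That of Grk3 in FSChi was lost without FSChi 2 or 3 or EpCAM 2, 4 or 5 (edgeR adjusted p up to 0.116). With RLE scaling 3 genes were called higher in FSClow than in EpCAM.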

How the data were processed

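The mm10 build is named in the submitters' processing notes, together with DESeq2, featureCounts, RSEM 1.2.21, STAR 2.4.2a and Picard 1.1073, but per the submitters' processing notes alone their roles are unknown. Whether counting used strand is not given in the sources used here. The authors deposited raw counts per gene and library for 27179 Entrez identifiers. The authors also deposited a normalized signal of 26221 rows, counts divided by a size factor; 100% of its values came out as whole reads within 0.01. The deposited single-library files hold expected counts, rounded here before use, and, per the file headers, TPM. The FSChi 3 file holds only 6807 expected counts and was left out of TPM levels.

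Symbols were matched for 25275 identifiers to RefSeq (GRCm38.p6), from which coordinates, 1-based, and promoter windows come. No stretch of 50 bases is shared between transcripts of any member and those of 25 other RGS genes and partners. Raw counts were tested with edgeR 4.0.16 in R 4.3.3 (filterByExpr by group, TMM, robust quasi-likelihood F test, group as the only term, all 19 libraries, 3 comparisons, Benjamini-Hochberg over 13340 genes). SE is the log2 fold change over the root of F. The code was tested on simulated counts. Alternatives used limma 3.58.1, DESeq2 1.42.0, other scalings, filters and inputs, and each library left out. Recovered reads called 5855, 3372 and 3265 genes. Counting intervals and the floor of 3 counts cover counting error only.

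All 10 members are named, and every other RGS gene that passed the filter could be; of each partner list the 4 genes with the smallest p could be. Genes most alike are the 2 tested genes with the smallest root mean square difference of centred log2 CPM (prior count 2) among those averaging 3 or more in log2 CPM. The members and lists were chosen with earlier results of these data known.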

Additional observations from a re-analysis of the deposited data

Results flagged for a closer look

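Single libraries stood apart from their group in 10 of 28 groups of member values tested with Dixon's gap ratio. For continuous values chance gives about 1 in 20 groups, but where most libraries are at 0, as for Rgs1, Rgs4, Rgs10 and Rgs21 in FSClow and Rgs4 in FSChi, counts in 1 or a few libraries can make such a gap by construction, so the number of groups is not read against chance. Rgs16 was at 35.3 CPM in FSClow 4, next to 17.9 in the nearest library, and at 8.44 in EpCAM 5, next to 3.14. Rgs20 was at 0.573 CPM in FSClow 4. For Rgs21 the high library was FSClow 5, at 2.87 CPM. The other 6 belong to genes outside the filter and rest on few counts. Rgs1 was at 0.403 CPM in FSClow 7. Rgs4 was at 2.12 CPM in FSClow 6 and 6.32 in FSChi 3. Rgs10 was at 1.41 CPM in FSClow 9, 6.11 in FSChi 1 and 3.92 in EpCAM 5.

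The effect against EpCAM differed between the eGFP+ gates for 3 members by edgeR's test of the difference, which is the comparison of FSChi with FSClow. The effect in FSChi minus that in FSClow was 2.16 for Rgs2 (adjusted p = 5.5e-06), 0.80 for Rgs3 (adjusted p = 0.0095) and 7.71 for Rgs21 (adjusted p = 2.6e-06) on the log2 scale. Those of Rgs2 and Rgs21 go with groups that do not overlap, and that of Rgs3 does not.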

How the results depend on the processing

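Over the 35 alternatives run, Rgs13 kept both of its calls against EpCAM (log2 fold change 7.66 to 9.02 in FSClow and 5.46 to 8.23 in FSChi), as Rgs21 kept both of its calls in FSChi and Rgs16 its call in FSClow (1.74 to 2.80). Rgs2 and, between FSClow and EpCAM, Rgs3 lost calls only in the 2 TPM fits that include the nearly empty FSChi 3 file. With TPM plus 0.1 and that file left out, Rgs2 was at 1.83 in FSChi against FSClow (limma adjusted p = 0.000208). In FSClow against EpCAM, Rgs2 was then at 2.22 and Rgs3 at -1.35 (limma adjusted p = 5.83e-07 and 0.00436). The calls of Rgs19, of Rgs20 in FSClow and of Rgs16 in FSChi are weak: Rgs19 kept its call against EpCAM in 19 of 35 alternatives in FSClow and 12 of 35 in FSChi, Rgs20 in 26 of 35 and Rgs16 in 13 of 35. The call of Rgs3 in FSChi against FSClow, kept in 28 of 35, was also lost with RSEM counts (0.72, edgeR adjusted p = 0.0934), RSEM without the FSChi 3 file (0.75, edgeR adjusted p = 0.0784), own-file libraries (0.23) and TPM without the FSChi 3 file (0.57, limma adjusted p = 0.347). Except where fewer libraries or genes were used by construction, the cause was not tested.

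Genes called over the whole table moved for FSClow against EpCAM to 2750 and 3550 (TPM plus 0.1 and plus 1), for FSChi against EpCAM to 1609 (TPM plus 0.1) and 1838 (libraries closest to their own file), and for FSChi against FSClow to 2106 (only those groups), 1982 (replicate block), 339 and 994 (TPM), 1754 (own file) and 1940 (TPM without the FSChi 3 file). Members called higher in FSClow than EpCAM came to 2 in both TPM fits and those called lower to 1, as the latter also did with the replicate block. In the TPM fits that 1 was Rgs10 (limma adjusted p = 0.00484 and 0.00528), and Rgs3 and Rgs20 lost their calls. With own-file libraries, no filter and TPM without the FSChi 3 file, 2 stayed lower, with Rgs10 in place of Rgs20. In FSChi against FSClow, Rgs10 took the place of Rgs3 among the 3 higher with own-file libraries. Members called higher in FSChi than EpCAM fell from 5 to 3 with RLE scaling, no filter, CPM above 1, only those groups, own file, recovered reads and TPM without the FSChi 3 file, and to 2 in both TPM fits. Members called lower there came to 1 (RLE, both TPM fits, own file) or 2 (DESeq2, normalized values). In FSChi against FSClow the members called higher fell from 3 to 2 with the replicate block, RSEM counts, RSEM without the FSChi 3 file and TPM without it, and to 1 in both TPM fits. Leaving out each library gave 5430 to 6508, 2702 to 3572 and 2634 to 3498 calls over all genes in the 3 comparisons, with 3 to 4, 3 to 5 and 3 to 3 members called higher and 1 to 2, 0 to 1 and 0 to 0 called lower.

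Signs turned as follows. Rgs19 in FSChi against EpCAM was -0.72 and -0.08 in the TPM fits. In FSChi against FSClow, Rgs2 was -0.54 (TPM plus 0.1), Rgs3 -0.89 and -0.29 (TPM plus 0.1 and plus 1), Rgs19 -0.13 (normalized values), -1.68 and -0.99 (TPM), -0.23 (TPM without the FSChi 3 file) and -0.08 to 0.36 with a library left out, and Rgs20 0.21 (RSEM), 0.38 (own file), 0.20 (RSEM without that file) and -0.37 to 0.20 with a library left out. The share of higher calls in FSClow against EpCAM was 34.2% with DESeq2, 33.5% without a filter, 34.6% with normalized values, 21% and 28.4% in the TPM fits, in place of 48.7%. The same share in FSChi against EpCAM was 42.2% with DESeq2, 37.8% with normalized values, 11.8% and 10.7% in the TPM fits, in place of 52.5%. In FSChi against FSClow it was 73.3% without a filter, 75.9% with own-file libraries, 49.6% and 32.9% in the TPM fits, in place of 62.5%.

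Replicate numbers 1 to 5 recur in the groups, and same-numbered libraries correlated at -0.192 to 0.404, highest for FSChi 1 with FSClow 1. These values cannot decide whether the numbers pair the samples, because libraries of the same animal need not deviate together. The columns of FSChi 3, 4 and 5 and EpCAM 1 and 2 were also not closest to the files of the same name. With the replicate block, Rgs21 in FSClow against EpCAM passed (edgeR adjusted p = 0.0197). Rgs20 in FSClow against EpCAM (-1.40) and Rgs19 in FSChi against EpCAM (0.91) did not pass. Neither did Rgs3 in FSChi against FSClow (0.77, edgeR adjusted p = 0.0641), and Rgs19 in FSChi against FSClow was -0.09. The recovered reads and the fits without the FSChi 3 file were chosen after seeing the data.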

Other observations

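Tnc and Cdh13, the genes nearest to Rgs21 in pattern, were both at least 112 CPM in every FSChi library; Cdh13 was at 126 to 275 CPM there, 0 to 11.6 in FSClow and 5.23 to 16.6 in EpCAM. Tas2r105, a bitter taste receptor gene, was at 19.8 to 239 CPM in FSChi, 0 to 1.81 in FSClow and 0 in EpCAM. It was picked by name, outside the naming rules above, and levels of other genes of its family were not looked at. Spib, second nearest to Rgs13, was at 423 ± 112 CPM in FSClow, 308 ± 137 in FSChi and 0.883 ± 0.634 in EpCAM (SD).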
